A study of Mus musculus with 9 samples.

Results

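The genes of 9 enzymes of macrophage activation were followed across mouse lung: Acod1, Nos2, Arg1, Arg2, Gch1, Sod2, Ptgs2, Alox5 and Cmpk2. They were chosen as enzymes of itaconate synthesis, of arginine use and its cofactor, of mitochondrial superoxide removal and of lipid mediator and mitochondrial nucleotide synthesis. Each was found by its symbol in 1 row of a table of 30865 genes. RNA of lung tissue was sequenced in 9 libraries of 3 groups with 3 libraries each. These were mice kept in normoxia, mice under hypoxia that the series calls sustained, and mice whose label gives a knockdown of Hif-1α after hypoxia. The label does not say how long after, or whether these mice were still under hypoxia when sampled. The hypoxia group and the group labelled knockdown are together called the hypoxic groups below, as a name only. The sources used here do not give strain, age, sex, oxygen level, length of exposure, the means and cell type of the knockdown, or whether each library came from its own animal, so the p-values measure the spread between these libraries, part of which may be technical.

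The sample titles name muscle and the tissue field names lung. Sftpc, the surfactant protein C gene of alveolar type 2 cells, lay between 12702 and 19685 CPM (counts per library total, scaled by TMM) in every library. Of 11 skeletal and cardiac muscle markers, 7 were tested and none was called in any comparison. Their summed level was uneven within each group, at 58.1 to 473 CPM in normoxia, 30.1 to 664 CPM in hypoxia and 11.2 to 349 CPM in the libraries labelled knockdown. Myh6, the cardiac myosin heavy chain, ranged from 1.11 to 441 CPM, while Acta1 and Myh4, of skeletal muscle, had at most 0.523 and 0.0570 CPM in any library. Library totals were 15566485 to 18046442 counts, and 3 counts, taken as the floor of detection, equal 0.166 to 0.193 CPM. Hypoxia replicate 2 stood apart from the other hypoxia libraries on the first principal component, with a score of -5.62 against 19.7 and 21.8. Its summed level of 15 T and NK cell markers was 299 CPM, against 838 and 995 CPM in those libraries.

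Hif1a, the gene named by the knockdown label, did not show a lower transcript level past the test. It stood at 93.4, 98.3 and 88.6 CPM in hypoxia and at 86.4, 85.5 and 85.0 CPM in the libraries labelled knockdown. The log2 fold change between these groups was -0.13 (SE 0.08, 95% interval -0.29 to 0.04, adjusted p = 0.62, edgeR), although the values did not overlap. Normoxia had 80.3, 87.8 and 78.6 CPM. The label is used below as a name, and each direction drawn from it compares the libraries labelled knockdown with the others, not a shown loss of Hif1a mRNA.

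Acod1 makes itaconate from cis-aconitate, an intermediate of the citric acid cycle, and is induced in macrophages by bacterial products and interferons. Arginine is shared by nitric oxide synthase, encoded by Nos2, and by arginases 1 and 2, which make ornithine and urea. Nitric oxide synthases need tetrahydrobiopterin, whose synthesis starts with the enzyme encoded by Gch1. Sod2 removes superoxide in mitochondria, Ptgs2 (cyclooxygenase 2) starts prostaglandin synthesis, Alox5 starts leukotriene synthesis, and Cmpk2 is a mitochondrial nucleotide kinase that is induced by interferon in macrophages. Not all of these genes are restricted to macrophages: Arg2, Gch1, Sod2 and Ptgs2 are also transcribed in epithelial, endothelial or stromal cells of lung. In bulk tissue, fewer cells of a type and less RNA per cell cannot be told apart.

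Acod1 and Cmpk2 carried the clearest differences described below, and Rsad2, which encodes the antiviral enzyme viperin, is the neighbour of Cmpk2. Rsad2 lies 12752 bases from Cmpk2 on the other strand of chromosome 12 and rose in the same libraries. Their start regions are therefore shown 5′ to 3′ on the strand of the gene, from 250 bases before to 50 bases after the RefSeq start in GRCm38.p6. Capitals mark a match to 1 of 4 searched motifs.

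Acod1 (chr14:103046762-103047061, plus strand): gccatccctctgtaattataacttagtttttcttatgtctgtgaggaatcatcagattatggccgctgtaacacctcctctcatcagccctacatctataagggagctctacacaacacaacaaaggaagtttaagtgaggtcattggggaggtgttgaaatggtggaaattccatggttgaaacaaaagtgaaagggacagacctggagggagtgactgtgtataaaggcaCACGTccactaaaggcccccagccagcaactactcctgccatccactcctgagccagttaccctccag
Cmpk2 (chr12:26468965-26469264, plus strand): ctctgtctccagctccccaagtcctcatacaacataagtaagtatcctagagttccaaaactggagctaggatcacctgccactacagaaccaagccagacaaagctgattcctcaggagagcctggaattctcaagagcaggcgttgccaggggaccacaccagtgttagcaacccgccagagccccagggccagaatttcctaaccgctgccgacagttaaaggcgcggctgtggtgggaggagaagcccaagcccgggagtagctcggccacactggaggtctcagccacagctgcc
Rsad2 (chr12:26456403-26456702, minus strand): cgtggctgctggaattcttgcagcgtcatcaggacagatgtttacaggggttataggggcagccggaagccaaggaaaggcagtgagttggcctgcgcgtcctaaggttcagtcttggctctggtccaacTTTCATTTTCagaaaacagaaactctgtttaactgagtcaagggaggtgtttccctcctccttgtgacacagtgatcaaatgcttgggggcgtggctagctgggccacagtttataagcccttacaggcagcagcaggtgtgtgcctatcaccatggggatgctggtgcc

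The motifs were searched on both strands: GAAA and GAAA with any 2 bases between (interferon-stimulated response element), TTC and GAA with any 3 between (gamma-activated site), GGGA and TTTCC with any 1 between (NF-kB site) and ACGTG (core of the hypoxia response element). Windows were at hand for 6 of the 9 genes (Acod1, Cmpk2, Gch1, Sod2, Ptgs2 and Alox5). The first motif was in none of these 6 and in 3.44% of all 32851 windows, but Rsad2 held it 120 to 111 bases before its start, on the opposite strand. ACGTG was in the windows of Acod1, 18 to 14 bases before the start on the opposite strand, and of Ptgs2, and in 19.6% of all windows. Sod2 held the gamma-activated motif, as did 8.30% of windows, and the NF-kB motif was in none of the 6 and in 0.411% of windows. These are exact matches of letters in a short window and show neither binding nor its absence. Stretches that differ from a motif by 1 base or more were not counted.

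**Figure D1:**
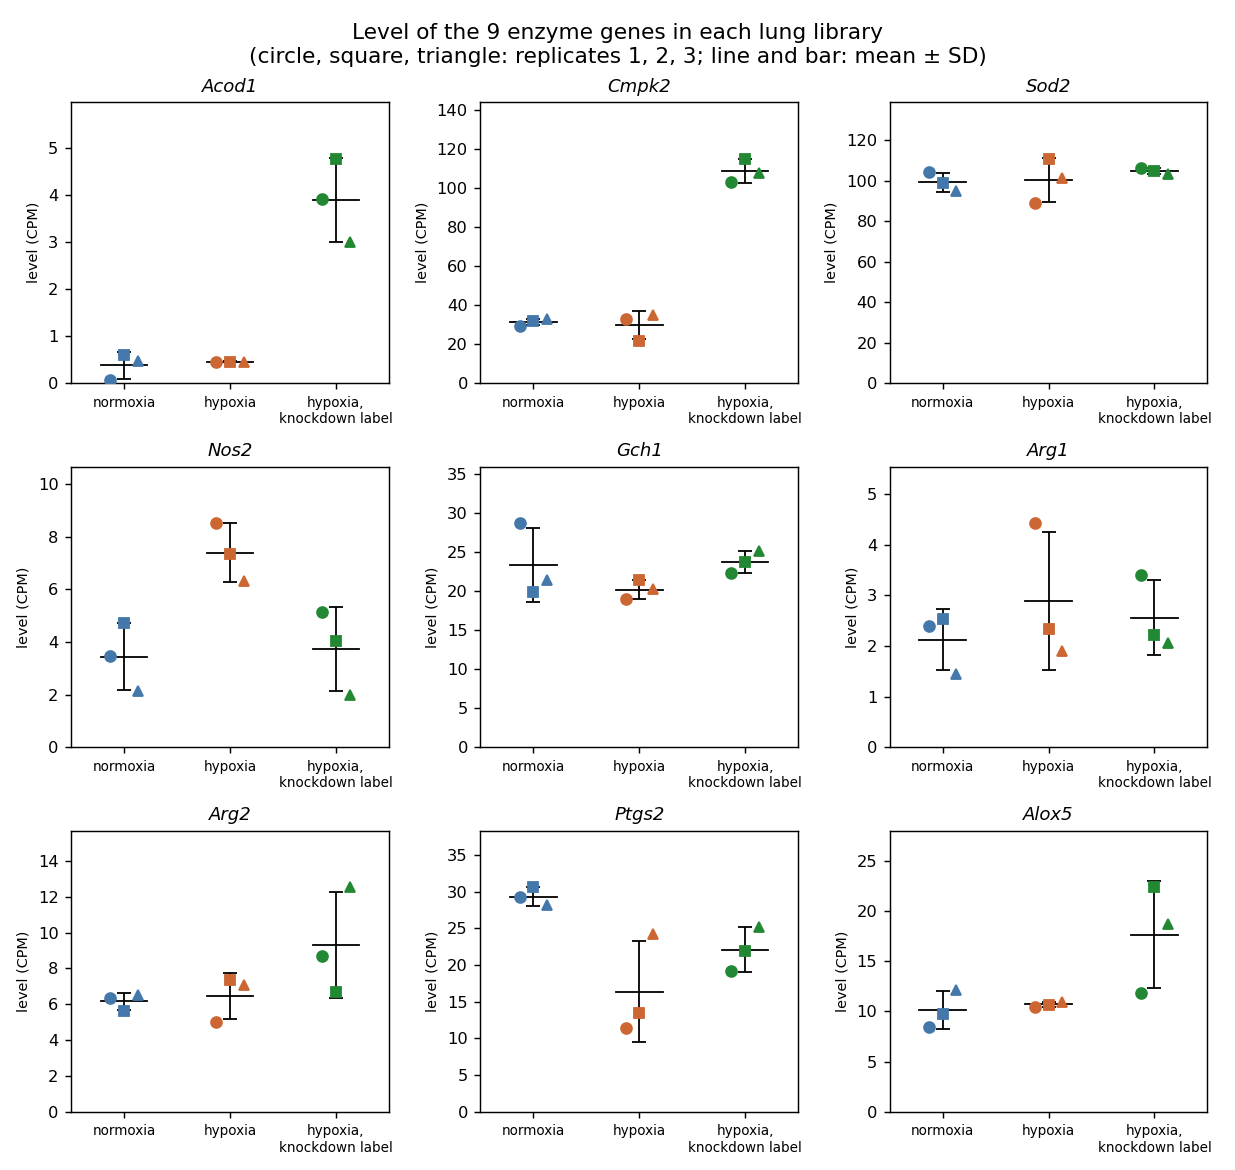
Level of each of the 9 genes in CPM (y axes, linear, from 0) in the 9 libraries by group (x axes), with circle, square and triangle for replicates 1, 2 and 3 and a line and bar for the mean ± SD. Acod1 and Cmpk2 were higher in each library labelled knockdown than in any other, Nos2 was highest in the hypoxia libraries, and Sod2 stayed between 89.2 and 111 CPM.

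The transcript of the itaconate-making enzyme had the largest fold change among the 9 genes, and it was seen in the libraries labelled knockdown, not in hypoxia alone. Itaconate itself was not measured. Acod1 (ENSMUSG00000022126; chromosome 14, 103046977 to 103056573, plus strand, GRCm38) had 0.0632, 0.604 and 0.480 CPM in normoxia, 0.443, 0.456 and 0.460 CPM in hypoxia, and 3.91, 4.77 and 2.99 CPM in the libraries labelled knockdown. These rest on few reads: 1, 10 and 8 counts in normoxia, 8 in each hypoxia library, and 70, 73 and 51 in the last group. All 3 libraries labelled knockdown lay above the other 6, and the normoxia and hypoxia values overlapped. The group means were 0.382 ± 0.283, 0.453 ± 0.00876 and 3.89 ± 0.890 CPM (SD, n = 3).

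Against hypoxia, Acod1 was 8.46-fold higher in the libraries labelled knockdown, with a 95% interval of 4.01 to 17.8 (log2 fold change 3.08, SE 0.49, adjusted p = 0.0069, edgeR). Against normoxia it was 9.91-fold higher (log2 fold change 3.31, SE 0.50, adjusted p = 0.0024). Hypoxia against normoxia gave 0.23 (95% interval -1.03 to 1.48, adjusted p = 0.89), so an effect of hypoxia alone of more than 2-fold in either direction was within the interval at this depth. Acod1 passed the filter on low counts through the libraries labelled knockdown: it reached the cutoff of 0.583 CPM in 1 normoxia library, no hypoxia library and 3 libraries labelled knockdown. Both calls held whichever of the 9 libraries was left out, with adjusted p of at most 0.038.

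Other genes of citrate, succinate and itaconate handling gave no call. Of 17 genes of citrate, isocitrate, succinate and itaconate handling besides Acod1, all tested, none passed in any comparison. Among all tested genes, 2.77% were higher and 1.45% lower in hypoxia than in normoxia. For the libraries labelled knockdown these shares were 1.26% and 0.449% against hypoxia and 4.79% and 3.44% against normoxia. The lack of calls in a list this short therefore does not set it apart from all genes. The list's median log2 fold change was 0.01 between the libraries labelled knockdown and hypoxia and 0.08 between hypoxia and normoxia, beside 0.00 and -0.01 over all tested genes.

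Cmpk2, which phosphorylates CMP and UMP in mitochondria, had the smallest adjusted p of the 9 genes. Cmpk2 (ENSMUSG00000020638; chromosome 12, 26469204 to 26479837, plus strand) had 29.5, 31.8 and 32.8 CPM in normoxia, 32.8, 21.8 and 34.9 CPM in hypoxia and 103, 115 and 108 CPM in the libraries labelled knockdown. No library of the last group came near the other 6, and hypoxia replicate 2 was the lowest of all. The level was 3.65-fold that of hypoxia (95% interval 2.90 to 4.58, log2 fold change 1.87, SE 0.15, adjusted p = 5.1e-05) and 3.47-fold that of normoxia (1.79, SE 0.15, adjusted p = 3.4e-05). For hypoxia against normoxia the log2 fold change was -0.07 (95% interval -0.40 to 0.26, adjusted p = 0.86).

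Rsad2, whose product makes a chain-terminating nucleotide from CTP, had 7.21, 13.2 and 13.8 CPM in normoxia, 15.2, 5.30 and 10.3 CPM in hypoxia, and 61.4, 72.1 and 50.7 CPM in the libraries labelled knockdown. Its log2 fold changes against hypoxia and normoxia were 2.57 (SE 0.34, adjusted p = 0.0017) and 2.43 (SE 0.33, adjusted p = 0.0013). As with Cmpk2, hypoxia replicate 2 was the lowest library. The 2 transcripts were thus high together, but not in 1 ratio: Cmpk2 counts were 2.15 to 4.11 times those of Rsad2 in the other 6 libraries and 1.60 to 2.13 times in the libraries labelled knockdown.

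In the list of 18 other genes of mitochondrial nucleotide supply, all tested, 2 were higher in the libraries labelled knockdown than in hypoxia. These were Rsad2 and Samhd1, a dNTP hydrolase that is also interferon-induced. Samhd1 rose from 355 ± 45 CPM in hypoxia to 714 ± 13 CPM, or by 1.01 ± 0.10 (SE) on the log2 scale (adjusted p = 0.00021), with 295 ± 22 CPM in normoxia. The list's median was 0.04, with 12 of 18 genes above 0, and no other gene of it passed. Of all tested genes, 1.26% were higher here, 4.79% in the libraries labelled knockdown against normoxia and 2.77% in hypoxia against normoxia. Against normoxia 3 genes were higher: Samhd1 (1.27), Rsad2 and Slc25a33, a mitochondrial pyrimidine nucleotide carrier (0.89, adjusted p = 0.0063), and these calls held in all 9 fits without 1 library. Hypoxia against normoxia had 2 higher genes, Rrm2, a ribonucleotide reductase subunit of dividing cells (2.16, adjusted p = 0.030), and Slc25a33 (0.65, adjusted p = 0.047). Rrm2 lost the call without normoxia replicate 1, 2 or 3, hypoxia replicate 1 or 3, or knockdown replicate 1 (1.72 to 2.30, adjusted p up to 0.11), and Slc25a33 lost it in 8 of 9 such fits, keeping it only without knockdown replicate 3 (0.59 to 0.75, adjusted p up to 0.15).

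**Figure D2:**
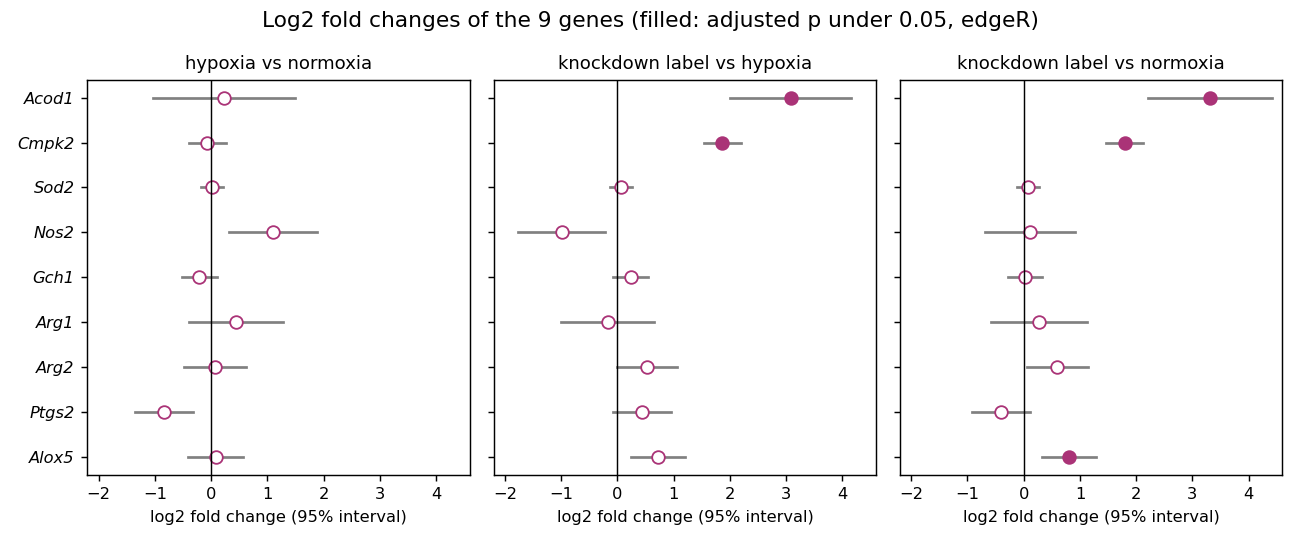
Log2 fold change of each of the 9 genes (points) with its 95% interval (lines) in hypoxia against normoxia, the libraries labelled knockdown against hypoxia, and the same libraries against normoxia. Filled points passed an adjusted p of 0.05 in edgeR: none in hypoxia against normoxia, Acod1 and Cmpk2 against hypoxia, and these with Alox5 against normoxia.

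Counted over the 9 genes, all of which were tested, none was called higher or lower in hypoxia than in normoxia with edgeR's quasi-likelihood test. Among all 17578 tested genes, that test called 2.77% higher and 1.45% lower in the comparison. An unadjusted p under 0.05 in this test was reached by 2 of the 9 genes and by 3068 of all 17578. The DESeq2 Wald test called 1 of the 9 higher and 1 lower, beside 814 and 495 among all genes. Between the libraries labelled knockdown and hypoxia, 2 of the 9 were higher (Acod1 and Cmpk2) and none lower, with 1.26% and 0.449% of all tested genes higher and lower. Against normoxia 3 of 9 were higher (with Alox5) and none lower, beside 4.79% and 3.44%. Any difference among the 3 groups was called for Acod1 (adjusted p = 0.0016) and Cmpk2 (adjusted p = 1.8e-05), beside 7.95% of all tested genes. The comparisons with hypoxia and with normoxia share the libraries labelled knockdown, so their calls do not stand apart from each other. Acod1, which is in each of these counts of called genes, passed the filter on low counts through those same libraries. The median log2 fold changes of the 9 genes were 0.07, 0.43 and 0.27 in the order of these comparisons, against -0.01, 0.00 and 0.00 over all tested genes.

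A broad interferon-induced set of genes was high in the same libraries as Cmpk2. Of 20 interferon response genes listed for reference, 19 were higher in the libraries labelled knockdown than in hypoxia, with a median log2 fold change of 2.28. Irf7, a transcription factor that amplifies interferon production, had 33.1 ± 7.6 CPM in hypoxia and 373 ± 57 CPM in the libraries labelled knockdown (3.49, SE 0.18, adjusted p = 4.4e-06), and Ifit1 gave 2.70. In hypoxia against normoxia, where Cmpk2 gave -0.07, 4 of the 20 were called higher and 19 lay above 0, with a median of 0.29: Ifit3 (0.80), Oas1a (0.82), Zbp1 (1.40) and Mx1 (1.35). Zbp1 lost that call without normoxia replicate 3 or hypoxia replicate 3 (1.30 to 1.46, adjusted p up to 0.055), and Mx1 without normoxia replicate 1, 2 or 3 or hypoxia replicate 1 or 3 (1.14 to 1.54, adjusted p up to 0.080). The summed level of the list was 590 to 692 CPM in normoxia, 673 to 902 CPM in hypoxia and 3183 to 3356 CPM in the libraries labelled knockdown. These genes were listed with earlier results of these libraries known, so the count is a description. Over the 9 libraries, the log2 levels closest to those of Cmpk2 were those of Ly6a, Dhx58 and Isg15 (Pearson r = 0.99 each), and those closest to Acod1 were Tor3a, Trim12a and Hk3 (r = 0.98 each). Each r spans 3 groups of which 1 stands apart in both genes, so it describes that group difference.

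Myeloid markers also moved in the libraries labelled knockdown, and some of them were called in hypoxia against normoxia too. The shares of all tested genes called in each comparison are given above. Of 15 neutrophil markers, 4 were higher than in hypoxia and none lower: S100a8 (1.68), S100a9 (1.67), Ly6g (2.63) and Il1r2 (2.23). Their summed level was 243 to 490 CPM in normoxia, 235 to 367 CPM in hypoxia and 509 to 708 CPM in the libraries labelled knockdown, and Ly6g, a defining marker, had 0.711 ± 0.23, 0.641 ± 0.17 and 4.02 ± 1.6 CPM. Of 16 markers of monocytes and interstitial macrophages, 3 were higher than in hypoxia (Fcgr1 1.70, C1qa 0.87 and C1qb 0.70), and their sums were 489 to 642, 500 to 730 and 810 to 1073 CPM. Of 14 alveolar macrophage markers none passed against hypoxia, and the sums were 738 to 874, 930 to 1012 and 827 to 1586 CPM. In hypoxia against normoxia, 4 of the 16 monocyte and interstitial macrophage markers were higher and 1 lower (median 0.62). Of the 14 alveolar macrophage markers 1 was higher (median 0.34), and no neutrophil marker was called (median -0.33). Against normoxia, the libraries labelled knockdown had 4 of 15 neutrophil markers and 3 of 14 alveolar macrophage markers higher. Of the 16 monocyte and interstitial macrophage markers, 11 were higher and 1 lower. Other markers moved the other way against hypoxia: 8 of 15 T and NK cell markers were lower (3 of 15 lay above 0). The same was true of 4 of 6 red cell markers (median -1.93). Against normoxia all 6 red cell markers were lower (median -3.92), whereas 6 of 15 T and NK cell markers were higher and none lower. Those higher were Ncr1, Prf1, Gzma, Klrb1c, Gzmb and Nkg7. The red cell sums were 1651 to 4420, 673 to 902 and 177 to 295 CPM in normoxia, hypoxia and the libraries labelled knockdown. None of these lists had a gene at 0 counts in all libraries. The part of these markers in the differences of Acod1, Cmpk2 and Alox5 was not tested.

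The calls of S100a8, Ly6g, Fcgr1 and C1qb against hypoxia held in all 9 fits without 1 library. Il1r2 lost its call without hypoxia replicate 3 (1.90, adjusted p = 0.065) or knockdown replicate 3 (1.75, adjusted p = 0.092). S100a9 lost it without normoxia replicate 3, hypoxia replicate 2 or 3, or knockdown replicate 2 or 3 (1.51 to 1.67, adjusted p up to 0.14). C1qa lost it without normoxia replicate 2 or 3, hypoxia replicate 1 or 2, or knockdown replicate 1 or 2 (0.71 to 0.87, adjusted p up to 0.13).

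**Figure D3:**
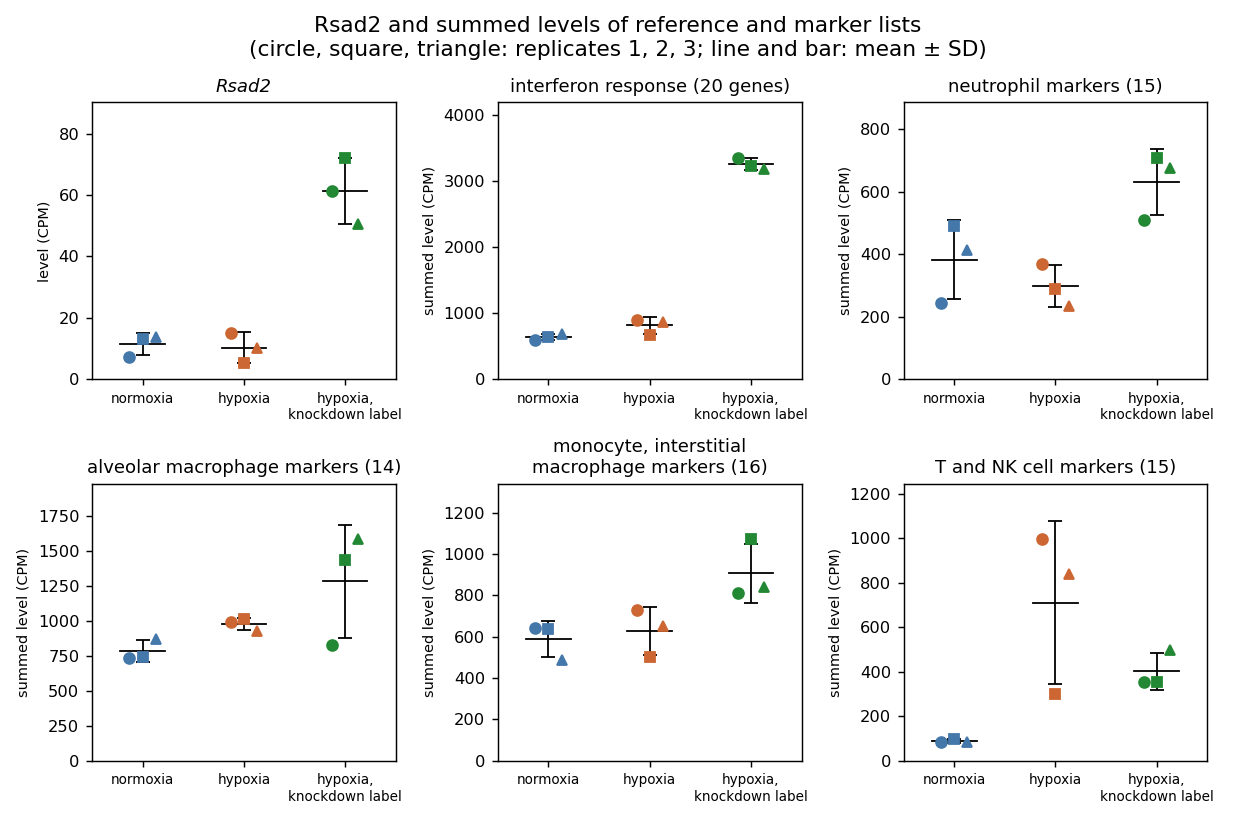
Level of Rsad2 and summed levels of the interferon response list and of 4 marker lists in CPM (y axes, linear, from 0) by group (x axes), with symbols for replicates and a line and bar for the mean ± SD. The interferon sum was 3183 to 3356 CPM in the libraries labelled knockdown and at most 902 CPM elsewhere, while the T and NK cell sum was highest in hypoxia replicates 1 and 3.

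Arginine use gave no called member. Nos2, the inducible nitric oxide synthase (ENSMUSG00000020826; chromosome 11, 78920787 to 78960254, plus strand), had 3.48, 4.71 and 2.16 CPM in normoxia, 8.53, 7.35 and 6.32 CPM in hypoxia, and 5.14, 4.05 and 1.99 CPM in the libraries labelled knockdown. Every hypoxia library lay above the other 6, which overlapped with each other. The log2 fold change of hypoxia against normoxia was 1.10 (SE 0.35, 95% interval 0.32 to 1.88, adjusted p = 0.12), a fold of 2.14 that did not pass. The libraries labelled knockdown against hypoxia gave -0.99 (SE 0.35, 95% interval -1.76 to -0.21, adjusted p = 0.29), and against normoxia 0.11 (95% interval -0.68 to 0.91, adjusted p = 0.90). The first difference was called with the DESeq2 Wald test (1.11, adjusted p = 0.033) and without the filter on low counts (1.10, adjusted p = 0.022).

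T and NK cell markers were high in the same group as Nos2: all 15 were higher in hypoxia than in normoxia, and their sums were 82.1 to 99.4, 299 to 995 and 353 to 497 CPM in normoxia, hypoxia and the libraries labelled knockdown. None was at 0 counts in all libraries. Within hypoxia, replicate 2 had the lowest sum and a Nos2 level between those of the other libraries. The part of these markers in the Nos2 difference was not tested.

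Arg1, the cytosolic arginase of alternatively activated macrophages (chromosome 10, 24915221 to 24927484, minus strand), was low throughout, with 2.40, 2.54 and 1.44 CPM in normoxia, 4.43, 2.34 and 1.90 CPM in hypoxia and 3.41, 2.22 and 2.05 CPM in the libraries labelled knockdown. The groups overlapped in all comparisons, and replicate 1 was the highest library of both hypoxic groups. Its log2 fold change was 0.44 for hypoxia against normoxia (95% interval -0.40 to 1.28, adjusted p = 0.62) and -0.17 for the libraries labelled knockdown against hypoxia (SE 0.38, adjusted p = 0.93). Counts of Nos2 were 1.45 to 1.86 times those of Arg1 in normoxia, 1.93 to 3.33 times in hypoxia and 0.971 to 1.82 times in the libraries labelled knockdown, ranges that are given without a test.

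Arg2, the mitochondrial arginase (chromosome 12, 79130777 to 79156301, plus strand), had 6.32, 5.62 and 6.54 CPM in normoxia, 4.98, 7.35 and 7.07 CPM in hypoxia and 8.71, 6.66 and 12.5 CPM in the libraries labelled knockdown. The last group lay above normoxia without overlap, with a log2 fold change of 0.60 (SE 0.24, 95% interval 0.06 to 1.14, adjusted p = 0.17), and overlapped hypoxia (0.53, 95% interval -0.01 to 1.06, adjusted p = 0.47). Hypoxia against normoxia gave 0.07 (95% interval -0.47 to 0.61, adjusted p = 0.92). Arg2 shares 285 bases with Vti1b on the other strand and spans the antisense gene Gm48780, whose reads cannot be told apart if the counting ignored strand.

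Around these enzymes, 21 of 23 further genes of arginine, ornithine and polyamine metabolism were tested. Ass1, the argininosuccinate synthase that regenerates arginine from citrulline, had 14.6 ± 1.4 CPM in normoxia, 20.6 ± 0.99 CPM in hypoxia and 29.1 ± 3.0 CPM in the libraries labelled knockdown. It was higher in both hypoxic groups than in normoxia (0.49, adjusted p = 0.045, and 0.99, adjusted p = 0.00046). The second call held in all 9 fits without 1 library, whereas the first was lost without normoxia replicate 2 or 3, hypoxia replicate 1 or 3, or knockdown replicate 1 or 3 (0.43 to 0.49, adjusted p up to 0.16). Ddah1, which degrades the nitric oxide synthase inhibitor asymmetric dimethylarginine, was lower than normoxia in both, at -0.49 (adjusted p = 0.022) and -0.58 (adjusted p = 0.0049). Its call in hypoxia was lost without normoxia replicate 1, 2 or 3 or hypoxia replicate 1 or 2 (-0.50 to -0.40, adjusted p up to 0.095).

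In the same list, Azin1, an antizyme inhibitor that sustains polyamine synthesis, gave -0.43 (adjusted p = 0.038) and -0.39 (adjusted p = 0.036) against normoxia, and each call was lost in 7 of 9 fits without 1 library. The losses came without normoxia replicate 1 or 3, hypoxia replicate 1 or 3, or knockdown replicate 1 or 3 in both cases, without hypoxia replicate 2 in the first and without knockdown replicate 2 in the second (-0.44 to -0.32, adjusted p up to 0.16). Gatm, the first enzyme of creatine synthesis, which takes its amidino group from arginine, was higher in the libraries labelled knockdown than in normoxia (1.13, adjusted p = 0.033). That call was lost without normoxia replicate 2 or 3 or knockdown replicate 1 or 2 (0.86 to 1.12, adjusted p up to 0.13). No gene of the list passed between the libraries labelled knockdown and hypoxia, and the list medians were 0.04, -0.07 and -0.03 in hypoxia against normoxia, the knockdown label against hypoxia and the label against normoxia. The other nitric oxide synthases did not pass: Nos3, the endothelial form, had 22.5 ± 4.4, 21.4 ± 3.6 and 22.1 ± 3.0 CPM, and Nos1, the neuronal form, was at most 0.223 CPM and was not tested.

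Gch1, GTP cyclohydrolase 1 (chromosome 14, 47153895 to 47189413, minus strand), had 28.8, 19.9 and 21.4 CPM in normoxia, 19.0, 21.4 and 20.2 CPM in hypoxia and 22.3, 23.8 and 25.2 CPM in the libraries labelled knockdown. The last group lay just above hypoxia without overlap, with a log2 fold change of 0.23 (SE 0.14, 95% interval -0.08 to 0.54, adjusted p = 0.62). Hypoxia against normoxia gave -0.21 (95% interval -0.52 to 0.10, adjusted p = 0.50), where normoxia replicate 1 was the high library. Of 7 further genes of tetrahydrobiopterin synthesis and recycling, all tested, none passed in hypoxia or between the hypoxic groups. Against normoxia 1 was lower in the libraries labelled knockdown, Gchfr, the feedback regulator that binds the Gch1 enzyme: it had 3.08 ± 1.4 CPM in normoxia, 1.11 ± 0.16 CPM in hypoxia and 0.712 ± 0.36 CPM in the libraries labelled knockdown (-2.12, SE 0.45, adjusted p = 0.016). The call was lost without normoxia replicate 3 (-1.68, adjusted p = 0.075), knockdown replicate 1 (-2.02, adjusted p = 0.062) or knockdown replicate 3 (-1.84, adjusted p = 0.061), and hypoxia against normoxia gave -1.46 (adjusted p = 0.089).

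Sod2, the manganese superoxide dismutase (chromosome 17, 13006846 to 13040063, plus strand), had the narrowest range relative to its level among the 9 genes. It had 104, 99.0 and 94.8 CPM in normoxia, 89.2, 111 and 101 CPM in hypoxia and 106, 105 and 103 CPM in the libraries labelled knockdown, and hypoxia alone spanned the values of the other groups. The log2 fold changes were 0.02 (95% interval -0.18 to 0.21, adjusted p = 0.95), 0.06 (-0.13 to 0.26, adjusted p = 0.89) and 0.08 (-0.12 to 0.27, adjusted p = 0.66) for hypoxia against normoxia and for the libraries labelled knockdown against hypoxia and against normoxia. The cytosolic and extracellular dismutase genes did not pass either: Sod1 gave 0.15 (95% interval -0.05 to 0.35) and Sod3 0.10 (95% interval -0.21 to 0.42) in the libraries labelled knockdown against hypoxia.

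The phagocyte oxidase makes superoxide outside mitochondria, and its genes were higher in the libraries labelled knockdown than in normoxia. Of 18 genes of superoxide production and removal besides Sod2, 17 were tested. In the libraries labelled knockdown 7 were higher than in normoxia, beside 4.79% of all tested genes. Among the 7 were the oxidase subunits and activator Cybb (1.32, adjusted p = 0.0061), Ncf1 (0.80), Cyba (0.73), Rac2 (1.23) and Ncf4 (0.95). Cybb, the catalytic subunit, had 56.1 ± 16 CPM in normoxia, 82.4 ± 22 CPM in hypoxia and 140 ± 25 CPM in the libraries labelled knockdown, and its call held in all 9 fits without 1 library. In hypoxia against normoxia 1 gene passed, Rac2, a small GTPase of blood cells including lymphocytes (34.9 ± 8.0 to 122 ± 51 CPM, 1.81, adjusted p = 0.0080), and hypoxia replicate 2 was its lowest hypoxia library at 64.4 CPM. None passed between the libraries labelled knockdown and hypoxia, where the list's median was 0.15. Of the monocyte and interstitial macrophage markers whose sums are given above, 11 of 16 were higher and 1 lower in the libraries labelled knockdown than in normoxia, and their part in these calls was not tested.

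The calls of Ncf1, Cyba, Rac2 and Ncf4 against normoxia were less stable. Ncf1 lost its call without knockdown replicate 2 (0.66, adjusted p = 0.053) or 3 (0.75, adjusted p = 0.051). Without normoxia replicate 1 or 3 or knockdown replicate 2 or 3, both Cyba (0.50 to 0.76, adjusted p up to 0.092) and Rac2 (1.07 to 1.23, adjusted p up to 0.093) fell short. Ncf4 kept its call only without hypoxia replicate 1 or 2 and otherwise gave 0.82 to 1.05 with adjusted p up to 0.12.

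Ptgs2, cyclooxygenase 2 (ENSMUSG00000032487; chromosome 1, 150100031 to 150108227, plus strand), was the member with the lowest fold change in hypoxia, but it did not pass. It had 29.2, 30.6 and 28.1 CPM in normoxia, 11.4, 13.5 and 24.2 CPM in hypoxia and 19.2, 21.9 and 25.3 CPM in the libraries labelled knockdown. Both hypoxic groups lay below normoxia without overlap, and overlapped with each other through hypoxia replicate 3. Hypoxia against normoxia gave -0.84 (SE 0.23, 95% interval -1.36 to -0.33, adjusted p = 0.075), and the libraries labelled knockdown against normoxia gave -0.41 (95% interval -0.92 to 0.10, adjusted p = 0.33). Between the hypoxic groups the log2 fold change was 0.43 (95% interval -0.08 to 0.95, adjusted p = 0.56).

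Endothelial markers were lower in the same groups as Ptgs2. Of 10, 2 were called lower in hypoxia than in normoxia (median log2 fold change -0.30, 1 above 0) and 4 in the libraries labelled knockdown (median -0.36, none above 0). Their sums were 5126 to 5920 CPM in normoxia, 4141 to 4642 CPM in hypoxia and 4183 to 4426 CPM in the libraries labelled knockdown, and none was at 0 counts in all libraries. Of 11 smooth muscle and fibroblast markers, 1 was lower than normoxia under hypoxia and 2 with the knockdown label. Lower calls covered 1.45% and 3.44% of all tested genes in these comparisons. The part of these markers in the Ptgs2 difference was not tested.

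For Ptgs2, the side of the threshold depended on 1 library and on the test and filter used. Without hypoxia replicate 3, hypoxia was lower than normoxia (-1.24, adjusted p = 0.010) and the libraries labelled knockdown were higher than hypoxia (0.82, adjusted p = 0.029). The first difference was also called with all libraries by the DESeq2 Wald test (-0.83, adjusted p = 0.010) and without the filter on low counts (-0.84, adjusted p = 0.0022). Ptgs1, the constitutive cyclooxygenase, had 73.9 ± 5.0, 78.1 ± 11 and 94.2 ± 18 CPM and passed in no comparison.

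Alox5, arachidonate 5-lipoxygenase (ENSMUSG00000025701; chromosome 6, 116410077 to 116461178, minus strand), had 8.47, 9.73 and 12.2 CPM in normoxia, 10.5, 10.7 and 11.0 CPM in hypoxia and 11.8, 22.4 and 18.8 CPM in the libraries labelled knockdown. The last group lay above hypoxia without overlap but overlapped normoxia through its own replicate 1. It was 1.74-fold above normoxia (log2 fold change 0.80, SE 0.22, 95% interval 0.32 to 1.28, adjusted p = 0.049) and 1.65-fold above hypoxia, which did not pass (0.72, 95% interval 0.24 to 1.20, adjusted p = 0.18). For hypoxia against normoxia the value was 0.08 (95% interval -0.41 to 0.57, adjusted p = 0.91).

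The Alox5 call against normoxia sat at the threshold: it held in 1 of 9 fits without 1 library, that without knockdown replicate 1. It was lost without normoxia replicate 1, 2 or 3 (0.69, 0.77 and 0.95), hypoxia replicate 1, 2 or 3 (0.80, 0.79 and 0.80) and knockdown replicate 2 or 3 (0.59 and 0.75), with adjusted p up to 0.17. Without knockdown replicate 1 the difference from hypoxia was called (0.94, adjusted p = 0.031). That library was also the lowest of its group in the alveolar macrophage sum, at 827 CPM against 1438 and 1586 CPM, and in the neutrophil sum, at 509 CPM against 674 and 708 CPM. Set beside the hypoxia libraries, it lay below them in the first sum (930 to 1012 CPM) and above them in the second (235 to 367 CPM). Its Alox5 level of 11.8 CPM was above theirs. The part of these markers in the Alox5 values was not tested. Alox5ap, the protein that presents arachidonic acid to this enzyme, had the same order of replicates in the last group, with 23.8, 40.1 and 31.8 CPM in the libraries labelled knockdown and 19.4 ± 3.5 and 20.4 ± 3.1 CPM in normoxia and hypoxia. It did not pass (0.64, adjusted p = 0.20, against hypoxia and 0.72, adjusted p = 0.051, against normoxia).

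Of 24 further prostaglandin and leukotriene genes, 23 were tested. In hypoxia against normoxia 1 was higher, Ptger4, a prostaglandin E2 receptor (4.38 ± 0.14 to 10.4 ± 1.8 CPM, 1.24, adjusted p = 0.0064), a call that held in all 9 fits without 1 library. Against normoxia, 4 were higher in the libraries labelled knockdown: Ptger4 (0.94, adjusted p = 0.011), prostacyclin synthase Ptgis (0.44, adjusted p = 0.016), thromboxane synthase Tbxas1 (0.94, adjusted p = 0.020) and Alox15 (3.95, SE 0.90, adjusted p = 0.022). None passed between the libraries labelled knockdown and hypoxia. Alox15, a lipoxygenase of eosinophils and resident macrophages, had 24.4, 2.02 and 8.03 CPM in the libraries labelled knockdown, 1.61, 3.59 and 4.14 CPM in hypoxia and 1.52, 0.604 and 0.120 CPM in normoxia, so replicate 1 carried much of its group mean.

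Alox15 lost its call without normoxia replicate 2 (3.82) or 3 (3.44) or knockdown replicate 1 (2.76), with adjusted p up to 0.088. Ptger4 lost the call against normoxia in the libraries labelled knockdown without normoxia replicate 3 (0.92, adjusted p = 0.053). Ptgis lost it without normoxia replicate 2 or 3 or knockdown replicate 2 (0.35 to 0.42, adjusted p up to 0.080), and Tbxas1 without normoxia replicate 1 or 2 or knockdown replicate 2 or 3 (0.75 to 0.92, adjusted p up to 0.081).

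**Figure D4:**
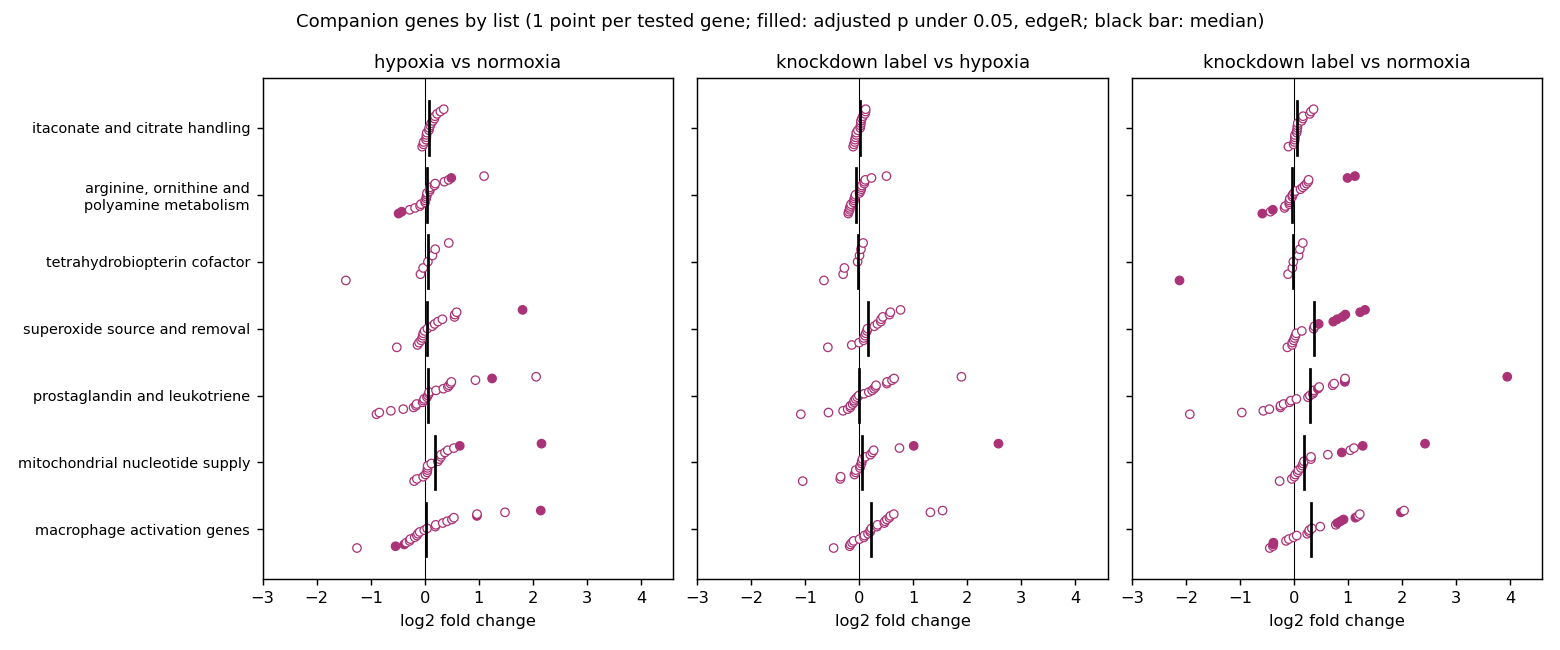
Log2 fold changes (x axes) of the tested genes of 7 companion lists (rows), 1 point per gene with filled points past an adjusted p of 0.05 and a bar at the median, in the 3 comparisons. Between the libraries labelled knockdown and hypoxia, the filled points are Samhd1 (1.01) and Rsad2 (2.57) alone.

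Other genes of macrophage activation gave calls against normoxia but none between the hypoxic groups. Of 23 such genes (cytokines, costimulatory molecules and regulators), 22 were tested and none passed between the libraries labelled knockdown and hypoxia, with a median log2 fold change of 0.21. Tnf rose from 0.430 ± 0.17 CPM in normoxia to 1.92 ± 0.13 CPM in hypoxia (2.15, adjusted p = 0.0095) and had 1.71 ± 0.081 CPM in the libraries labelled knockdown (1.98 against normoxia, adjusted p = 0.0074). Both Tnf calls held in all 9 fits without 1 library. The normoxia mean of Tnf lay below 0.583 CPM, the cutoff of the filter on low counts, so both calls rest on few reads in normoxia. Against normoxia, 5 genes of the list were higher and 2 lower in the libraries labelled knockdown, beside 4.79% and 3.44% of all tested genes. Irf5, a transcription factor of inflammatory macrophages, was higher (0.92, adjusted p = 0.0050) in all 9 such fits.

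The mannose receptor gene Mrc1 (0.80, adjusted p = 0.022) and the costimulatory gene Cd86 (0.86, adjusted p = 0.036) were also higher than in normoxia. Mrc1 lost its call without normoxia replicate 1 or 2 or knockdown replicate 2 or 3 (0.66 to 0.81, adjusted p up to 0.083), and Cd86 without normoxia replicate 2 or 3 or knockdown replicate 1 or 2 (0.70 to 0.88, adjusted p up to 0.14). In hypoxia against normoxia, Tnf and Irf4, a transcription factor of lymphocytes and alternatively activated macrophages (0.96, adjusted p = 0.022), were higher. Irf4 lost its call without normoxia replicate 1 or 3 or hypoxia replicate 1 or 3 (0.75 to 1.02, adjusted p up to 0.091). The NF-kB regulator Nfkbiz (-0.54, adjusted p = 0.013) and the actin-binding protein gene Marcks (-0.38, adjusted p = 0.022) were lower. Nfkbiz lost that call without hypoxia replicate 1 (-0.55, adjusted p = 0.053), and Marcks without normoxia replicate 1 or 3 or hypoxia replicate 1 or 3 (-0.39 to -0.35, adjusted p up to 0.10).

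Marcks and Nfkbiz were also the 2 genes lower in the libraries labelled knockdown than in normoxia, both at -0.38 (adjusted p = 0.013 and 0.037). Marcks lost that call without normoxia replicate 3 or knockdown replicate 1 (-0.36 each, adjusted p up to 0.060), and Nfkbiz kept it only without normoxia replicate 3 or hypoxia replicate 2 (otherwise -0.42 to -0.33, adjusted p up to 0.12). The fifth higher gene, named after its value was seen, was Chil3, a chitinase-like protein of alveolar macrophages (1.14, adjusted p = 0.042). It kept its call only without hypoxia replicate 2 or knockdown replicate 1 and otherwise gave 0.86 to 1.35 with adjusted p up to 0.14.

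A scale of CPM per kilobase of exon sets levels of different genes side by side only roughly. Its length is the union of all annotated exons of a gene, not the length of the transcripts present. On this scale Sod2 led in normoxia at 9.93, followed by Cmpk2 at 7.53, Ptgs2 at 6.40, Arg2 at 4.31, Gch1 at 3.74, Alox5 at 2.47, Arg1 at 0.955, Nos2 at 0.782 and Acod1 at 0.146. The ranges of neighbours overlapped for Arg2 and Gch1 and for Arg1 and Nos2. In hypoxia the order began with Sod2 at 10.04 and Cmpk2 at 7.16 and ended with Nos2 at 1.68, Arg1 at 1.30 and Acod1 at 0.173, and the ranges of Arg2, Ptgs2 and Gch1 overlapped, as did those of Nos2 and Arg1. In the libraries labelled knockdown Cmpk2 stood first at 26.1, above Sod2 at 10.5, with no overlap of ranges. That gap rests on the lengths used, 4163 and 10008 bases. Before division by length the means were 109 and 105 CPM, with overlapping ranges. Acod1, last in the other groups, stood at 1.48, where its range overlapped that of Arg1 (1.15), which in turn overlapped that of Nos2 (0.845).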

How the data were processed

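RNA-seq of 9 mouse lung libraries was analysed from 1 table of whole-number read counts per gene, which the authors deposited without normalisation. An RNeasy Mini Plus kit and a NEBNext Ultra RNA kit served for extraction and libraries, per the labels' protocols. The submitters' processing notes name bcl2fastq, HISAT2, TopHat, StringTie, limma, DESeq and build mm10. For the counting program and its strand setting nothing is given in the sources used here. Of 30388 identifiers shared with GENCODE M21, 639 had the position listed in the table, so positions were taken from GENCODE M21 (GRCm38) by identifier.

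Counts were fitted with edgeR 4.0.16 in R 4.3.3: filterByExpr (minimum count 10) kept 17578 of 30865 genes, TMM factors were 0.976 to 1.03, and 1 quasi-likelihood model of all 9 libraries had 6 residual degrees of freedom (common biological coefficient of variation 17.3%). Each adjusted p comes from its F-test with Benjamini-Hochberg adjustment over all tested genes and a threshold of 0.05, unless another test is named. SEs were derived from the F statistic. The test was checked on simulated data. Levels are CPM scaled by TMM, as mean ± SD with n = 3. Floors and counts cover counting error only, since reads carry no molecular identifiers. Between replicates, chi-square per degree of freedom was 11.9 to 23.5, so each pair differed by more than sampling noise.

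The 9 genes, the lists and the tests were chosen with earlier results of these data known. Named were the 9 genes, Hif1a, up to 6 called genes per list and comparison by smallest adjusted p, the direct relatives Rsad2, Nos1, Nos3, Ptgs1, Sod1, Sod3, Alox5ap and Gchfr, and the 3 genes most like each member that differed among the groups (Pearson r of log2 CPM, mean of at least 1 CPM). Of the genes that this rule names, 1 is not reported here. All 269 list entries matched by symbol. Promoter windows and their sequences come from RefSeq (GRCm38.p6), exon lengths from GENCODE M21. Alternatives were DESeq2 size factors, the Wald test of DESeq2 1.42.0 (for 3 groups its likelihood ratio test), limma-voom (limma 3.58.1), no filter, a filter of 1 CPM in 3 libraries, a model of the 6 compared libraries alone, a replicate block, and leaving out each library.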

Additional observations from a re-analysis of the deposited data

How the results depend on the processing

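The calls of Acod1 and Cmpk2 in the libraries labelled knockdown, against hypoxia and against normoxia, kept their direction and passed under each of the 16 alternatives. The Alox5 call against normoxia was lost in 12 of 16: in 8 of the 9 fits without 1 library and with DESeq2 size factors (0.80, adjusted p = 0.050), limma-voom (0.75, adjusted p = 0.087), only the 6 libraries compared (0.80, adjusted p = 0.078) and the replicate block (0.78, adjusted p = 0.055). Alox5 passed against hypoxia without the filter on low counts (0.71, adjusted p = 0.040). The cause of each of these changes was not tested. No result changed direction past a threshold.

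In hypoxia against normoxia, the 487 genes higher became 814 with the DESeq2 Wald test, 267 with limma-voom, 851 without the filter, 276 with only the 6 libraries and 282 with the replicate block, and 138 to 750 without 1 library each. The 255 genes lower became 495 with DESeq2, 442 without the filter, 168 with the 6 libraries and 118 with the block, and 71 to 248 without 1 library. Of the 9 genes, 1 was higher (Nos2) and 1 lower (Ptgs2) with DESeq2 and without the filter, and 0 to 1 were lower without 1 library. Between the libraries labelled knockdown and hypoxia, 222 genes higher became 362 with DESeq2 and 376 without the filter. The 79 genes lower became 205 with DESeq2, 40 with limma-voom, 268 without the filter and 39 with the block, and 30 to 243 without 1 library. Against normoxia, 842 genes higher became 457 to 935 without 1 library. The 604 lower became 927 with DESeq2 and 352 with the block, and 258 to 632 without 1 library. Of the 9 genes, 5 differed among the 3 groups with DESeq2 and without the filter, against 2. Over the list and marker genes, 3601 values kept their side of the threshold, 299 calls were lost and 84 gained.

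Whether replicate numbers pair the libraries is not given by the labels. Same-numbered libraries had correlations of deviations from group means of -0.41 to 0.27, which with 3 libraries per group cannot settle it. The replicate block is therefore an alternative only. At these depths Acod1 outside the libraries labelled knockdown rests on at most 10 counts a library, and the 95% intervals of Arg1 reach from -0.40 to 1.28 in hypoxia against normoxia, so smaller differences were not detectable.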
